A study of Mus musculus with 9 samples.

Results

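The genes described here mark the B cell lineage. They are *Cd79a*, *Cd79b*, *Blk*, *Cd22*, *Cr2*, *Fcer2a*, *Ms4a1*, *Pax5* and *Ebf1*, 9 of the 55487 genes listed, and they were taken by symbol from a list of B cell identity genes. The libraries were made from splenic CD4+ T cells of wild-type C57BL/6 mice, enriched by a kit that labels and removes the other cells (negative selection). The mice were female and 6 to 7 weeks old. The 9 libraries formed 3 groups of 3: cells kept in medium (medium), cells stimulated for 24 h with anti-CD3 antibody (Ab) at 3 μg/ml and anti-CD28 Ab at 2 μg/ml (activated), and cells stimulated in the same way with TRAIL at 10 μg/ml (TRAIL-treated activated). TRAIL is a ligand of the tumour necrosis factor family. Anti-CD3 and anti-CD28 Abs engage the T-cell receptor complex and its costimulatory receptor. Every library came from wild-type cells, the time in culture of the medium group is not given in the sources used here, and cells treated with TRAIL alone and receptor-knockout cells were not analysed here. Nothing in the sources says that the libraries of a group came from separate mice or cultures, so the p-values measure only the spread between these libraries, which may be technical.

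B cells recognise antigen with a membrane immunoglobulin that cannot signal alone. It is held on the surface by CD79A and CD79B, whose cytoplasmic tails are phosphorylated by Src-family kinases such as BLK and then recruit SYK. CD22 binds sialic acid and dampens this signal by recruiting the phosphatase SHP-1, whereas CR2 (CD21) binds complement fragments on antigen and enhances it. FCER2A (CD23) is the low-affinity receptor for IgE on mature B cells, MS4A1 (CD20) is a membrane protein of B cells, and EBF1 and PAX5 are the transcription factors that establish and maintain the lineage. In the spleen, B cells fill the follicles and the marginal zone and lie next to the T-cell areas, so a splenic cell suspension holds both lineages before any enrichment. In RNA from a mixed pool of cells, fewer cells of a type and less RNA per cell cannot be told apart.

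The upstream regions of 6 of the 9 genes had entries in the RefSeq promoter table (GRCm38.p6), and those of *Cd79b*, *Blk* and *Ms4a1* had none. From the 6, 3 are shown, first that of *Cr2*, the gene with the largest difference on activation. The second is that of *Fcer2a*, the other mature B cell receptor gene compared with it. The third is that of *Cd22*, the only gene among these 6 with the palindrome bound by EBF-family factors. Each is printed 5′ to 3′ on the strand of the gene, and capitals mark a motif match. The *Cr2* stretch lies at chr1:195176720-195176969 on the minus strand, the *Fcer2a* stretch at chr8:3694176-3694424 on the minus strand, and the *Cd22* stretch at chr7:30879029-30879176 on the minus strand. The *Cr2* and *Fcer2a* stretches lie just upstream of the annotated gene starts, and the *Cd22* stretch lies outside exons but inside the longer gene body of GENCODE release M21.
Cr2: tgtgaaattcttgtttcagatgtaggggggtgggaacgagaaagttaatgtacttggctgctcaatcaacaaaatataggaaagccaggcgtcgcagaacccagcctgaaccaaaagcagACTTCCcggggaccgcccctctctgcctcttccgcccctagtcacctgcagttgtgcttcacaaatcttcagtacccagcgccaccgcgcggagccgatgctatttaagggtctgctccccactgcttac
Fcer2a: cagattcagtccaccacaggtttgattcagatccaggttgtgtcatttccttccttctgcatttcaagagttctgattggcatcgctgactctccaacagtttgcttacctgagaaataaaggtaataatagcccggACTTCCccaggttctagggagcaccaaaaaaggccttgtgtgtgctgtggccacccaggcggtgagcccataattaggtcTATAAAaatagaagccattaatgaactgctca
Cd22: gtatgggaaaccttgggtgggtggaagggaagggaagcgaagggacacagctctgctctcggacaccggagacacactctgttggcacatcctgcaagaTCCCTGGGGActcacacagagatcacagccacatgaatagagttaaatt
The search covered the 250 bases before the start on both strands and used 4 motifs: GGAAGT (a core of Ets-family sites, ACTTCC on the other strand), the EBF palindrome, ATTTGCAT (the octamer) and TATAAA (the TATA box). The 6 genes had 9 windows, since the table lists 3 starts for *Fcer2a* and 2 for *Ebf1*. GGAAGT or its complement was present in 4 of these 9 windows, 1 each of *Cd79a*, *Cr2*, *Ebf1* and *Fcer2a*, and in 19.7% of all 32851 windows. In *Cr2* the match began 130 bases before the start and in the printed *Fcer2a* window 113 bases before its start. The other 2 *Fcer2a* windows, at starts within the gene, held none of the 4 motifs. The EBF palindrome was present in 1 of the 9 windows, that of *Cd22*, 49 bases before the start, and in 0.779% of all windows. TATAAA was present in 1 of the 9, the printed *Fcer2a* window, 33 bases before the start, and in 12.4% of all windows. ATTTGCAT was present in none of the 9 and in 1.6% of all windows. A match describes these letters only and says nothing about binding.

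In medium, transcripts of all 9 genes were measured at between 35.1 and 593 TPM (transcripts per 1000000 transcripts) in every library. TPM gives the share of a gene in the transcripts of a library, corrected for length, so levels of different genes can be compared. *Cd79a* led with 555 ± 45.8 TPM (SD, n = 3), followed by *Cd79b* with 504 ± 26.2 TPM, and the libraries of these 2 genes overlapped. *Ms4a1* was at 341 ± 35.9 TPM, below both and above *Fcer2a* (232 ± 17.5 TPM) and *Cd22* (213 ± 26.6 TPM), which overlapped each other. *Blk* (116 ± 4.98 TPM), *Pax5* (116 ± 15.4 TPM) and *Cr2* (108 ± 4.31 TPM) overlapped as neighbours in this order, and *Ebf1* was lowest at 39.2 ± 3.86 TPM. The coefficient of variation between medium libraries ran from 3.97% (*Cr2*) to 13.3% (*Pax5*), and the neighbours in this order that separated without overlap were *Cd79b* from *Ms4a1*, *Ms4a1* from *Fcer2a*, *Cd22* from *Blk* and *Cr2* from *Ebf1*.

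**Figure D1:**
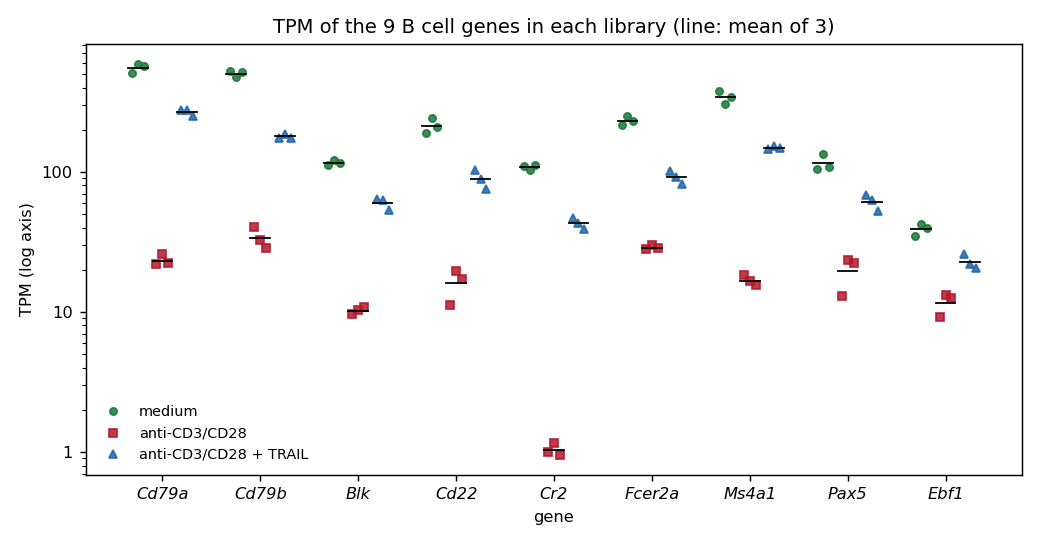
TPM of each B cell gene (x axis) on a log axis (y axis) in the 9 libraries. Points are single libraries, coloured by group, and lines are means of 3. For each gene the 3 activated libraries lie lowest, the 3 TRAIL-treated activated libraries between, and the 3 medium libraries highest, from *Cr2* at 0.948 to 1.15 TPM in activated libraries up to *Cd79a* at 504 to 593 TPM in medium.

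Activation with anti-CD3/CD28 Abs was compared with medium to see how the B cell transcripts differ once the T cells are stimulated. Levels of all 9 genes were lower in the activated libraries, between 0.955% (*Cr2*) and 29.7% (*Ebf1*) of the medium mean, with a median of 7.53%. The test was limma on log2(TPM + 1) over 15536 genes, and a gene was called where it differed by 1 or more on the log2 scale with an adjusted p (Benjamini-Hochberg) under 0.05. By this rule 9 of 9 genes fell, against 19.5% of all genes tested. The median log2 fold change was -3.68 over the 9 genes and -0.15 over all genes tested. For 9 of 9 genes the activated and medium libraries did not overlap, which 42.6% of all genes tested also showed in this direction.

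The receptor chains, a kinase and an inhibitory receptor that act on the same signal are described first. *Cd79a* (ENSMUSG00000003379, GRCm38 chromosome 7, 24897381 to 24902197, plus strand) was at 504, 593 and 568 TPM in medium and at 21.8, 25.7 and 22.2 TPM after activation. *Cd79b* (ENSMUSG00000040592, chromosome 11, 106311341 to 106314762, minus strand) was at 522, 473 and 515 TPM in medium and at 40.2, 32.6 and 28.6 TPM after activation. The 2 chains, which pair in the receptor, were thus both far below the lowest medium library, and *Cd79a* was the lower of the pair in each activated library. In limma the log2 fold change was -4.52 (SE 0.10, adjusted p = 3.0e-10) for *Cd79a* and -3.87 (SE 0.12, adjusted p = 2.1e-09) for *Cd79b*. *Blk* (ENSMUSG00000014453, chromosome 14, 63372836 to 63417037, minus strand), the Src-family kinase, was at 111, 121 and 115 TPM in medium and at 9.63, 10.3 and 10.8 TPM after activation. *Cd22* (ENSMUSG00000030577, chromosome 7, 30865402 to 30880342, minus strand), the inhibitory receptor whose upstream stretch holds the palindrome above, was at 188, 241 and 209 TPM in medium and at 11.2, 19.7 and 17.1 TPM after activation. The means after activation were 8.83% of medium for *Blk* and 7.53% for *Cd22*, and the activated libraries spread more for *Cd22*. Their log2 fold changes in limma were -3.38 (SE 0.10, adjusted p = 1.7e-09) and -3.68 (SE 0.19, adjusted p = 7.8e-08).

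Of the sets of genes described here in turn, the mature B cell receptors differed most among themselves. *Cr2* (ENSMUSG00000026616, chromosome 1, 195136811 to 195176716, minus strand), the complement receptor, was at 111, 104 and 111 TPM in medium and at 1.00, 1.15 and 0.948 TPM after activation, a 105-fold difference of means. *Fcer2a* (ENSMUSG00000005540, chromosome 8, 3681737 to 3694175, minus strand), the IgE receptor, was at 216, 251 and 230 TPM in medium and at 28.0, 29.9 and 28.5 TPM after activation, an 8.06-fold difference of means. Both genes fell in every activated library, yet the log2 fold changes in limma were -5.75 (SE 0.10, adjusted p = 1.9e-10) for *Cr2* and -2.97 (SE 0.10, adjusted p = 4.2e-09) for *Fcer2a*. *Ms4a1* (ENSMUSG00000024673, chromosome 19, 11249675 to 11266241, minus strand), the CD20 gene, lay between, at 376, 304 and 344 TPM in medium and at 18.2, 16.5 and 15.5 TPM after activation, with a log2 fold change of -4.27 in limma (SE 0.10, adjusted p = 4.7e-10).

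The 2 transcription factor genes kept the largest share of their medium level. *Pax5* (ENSMUSG00000014030, chromosome 4, 44524757 to 44710487, minus strand) was at 105, 133 and 108 TPM in medium and at 13.1, 23.4 and 22.4 TPM after activation. *Ebf1* (ENSMUSG00000057098, chromosome 11, 44617317 to 45008091, plus strand) was at 35.1, 42.7 and 39.9 TPM in medium and at 9.12, 13.3 and 12.6 TPM after activation. The first activated library was the lowest for both genes, and *Pax5* had the largest spread of the 9 genes there, with a coefficient of variation of 29.0%. The log2 fold changes in limma were -2.53 (SE 0.20, adjusted p = 1.6e-06) and -1.68 (SE 0.15, adjusted p = 4.3e-06), the smallest of the 9 genes. Within the *Pax5* gene body the microRNA gene *Mir5120*, on the same strand, was listed at 0.0913 to 5.71 TPM, so reads of the 2 genes could have been split between them. Genes on the opposite strand inside *Pax5*, *Cd22*, *Ms4a1* and *Ebf1* were each at most 0.971 TPM.

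Because *Cr2* fell to the level of about 1 TPM, the pseudocount of 1 TPM bears on its fold change, which ran from -4.23 with a pseudocount of 5 TPM to -6.58 with a pseudocount of 0.1 TPM. No alternative setting changed the call of any of the 9 genes in this comparison.

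TRAIL-treated activated cells were then compared with activated cells to see how the same transcripts differ when TRAIL is present during stimulation. Levels of all 9 genes were higher with TRAIL, from 1.96-fold (*Ebf1*) to 41.6-fold (*Cr2*) in the means. By the same rule 8 of 9 genes rose, against 16.6% of all genes tested, and *Ebf1* stayed under the fold threshold. The median log2 fold change was 2.43 over the 9 genes and 0.011 over all genes tested. The libraries of the 2 groups did not overlap for 9 of 9 genes, which 35.5% of all genes tested also showed in this direction. This comparison and the former share the activated libraries, so they are not independent of each other.

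*Cr2* was at 46.9, 43.1 and 39.3 TPM with TRAIL, against about 1 TPM without it, and its log2 fold change in limma was 4.43 (SE 0.10, adjusted p = 5.7e-10), or 2.99 and 5.25 with pseudocounts of 5 and 0.1 TPM. *Cd79a* was at 277, 276 and 251 TPM with TRAIL and *Cd79b* at 174, 188 and 175 TPM. *Cd79a*, lower than *Cd79b* in each activated library, was thus higher than *Cd79b* in each library with TRAIL. The log2 fold changes of the 2 genes in limma were 3.47 (SE 0.10, adjusted p = 1.9e-09) and 2.38 (SE 0.12, adjusted p = 6.3e-08). *Ms4a1* was at 146, 152 and 147 TPM with TRAIL, the tightest group of the 9 genes with a coefficient of variation of 2.07%, and rose by 3.08 on the log2 scale (SE 0.10, limma adjusted p = 4.1e-09). *Blk* was at 63.6, 62.5 and 53.5 TPM and *Cd22* at 103, 89.1 and 74.8 TPM, with log2 fold changes of 2.44 and 2.43. In both of these genes the third library with TRAIL was the lowest and still far above the highest activated library. *Fcer2a* was at 101, 92.3 and 81.5 TPM and *Pax5* at 67.9, 62.5 and 53.0 TPM, and each rose by 1.63 on the log2 scale. *Ebf1* was at 26.1, 21.9 and 20.5 TPM, with a log2 fold change of 0.92 (SE 0.15, limma adjusted p = 3.5e-04). For *Ebf1* the fold change was 1.02, past the fold threshold, without activated replicate 2, under median-of-ratios scaling, and after rescaling without mitochondrial, immunoglobulin and globin genes.

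**Figure D2:**
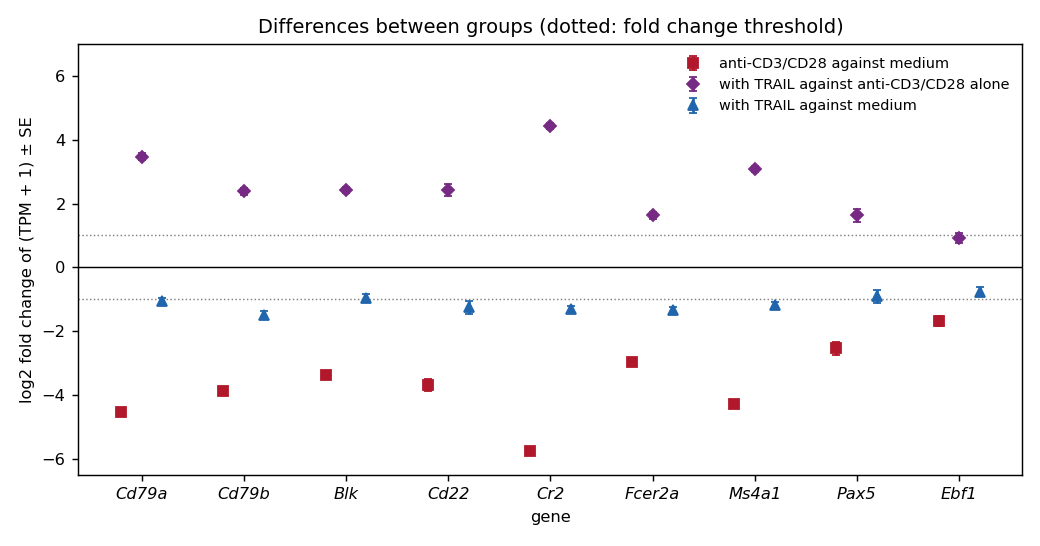
Log2 fold change of each B cell gene on the log2(TPM + 1) scale in the 3 comparisons, with SE bars from limma. Activated against medium lies below 0 for each gene (-5.75 to -1.68), TRAIL-treated activated against activated above 0 (0.92 to 4.43), and TRAIL-treated activated against medium between, from -1.49 to -0.76.

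TRAIL-treated activated cells were also compared with medium. The 9 genes were between 35.5% (*Cd79b*) and 58.3% (*Ebf1*) of their medium mean, with a median of 43.5%, and the libraries of the 2 groups did not overlap for any of the 9 genes, which 38.2% of all genes tested also showed in this direction. By the same rule 6 of 9 genes fell, against 2.13% of all genes tested, and 2.49% of all genes tested rose. The log2 fold changes of these 6 in limma were -1.49 for *Cd79b* (adjusted p = 2.2e-05), -1.34 for *Fcer2a* (adjusted p = 1.6e-05), -1.32 for *Cr2* (adjusted p = 1.7e-05), -1.25 for *Cd22* (adjusted p = 1.3e-03), -1.19 for *Ms4a1* (adjusted p = 3.2e-05) and -1.05 for *Cd79a* (adjusted p = 7.2e-05). *Blk* (-0.94), *Pax5* (-0.91) and *Ebf1* (-0.76) passed the p threshold with limma adjusted p-values of 1.2e-04, 7.9e-03 and 4.8e-03 but not the fold threshold. The range over the 9 genes was thus 0.73 on the log2 scale, against 4.07 for activated cells compared with medium. The median was -1.19 over the 9 genes and -0.18 over all genes tested. The call of *Cd79a* was lost under median-of-ratios scaling (-0.86), without medium replicate 2 (-0.996) and without TRAIL-treated replicate 3 (-0.9999). Median-of-ratios scaling moved the median of all genes by 0.17 on the log2 scale in this comparison.

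The mix of the 9 transcripts was followed within each library by dividing the TPM of each gene by the geometric mean of all 9, which removes any factor that the 9 genes have in common. That geometric mean was 178 to 193 TPM in medium, 12.2 to 14.6 TPM in activated and 76.6 to 90.0 TPM in TRAIL-treated activated libraries. On the log2 scale, *Cr2* was 0.78 below the geometric mean in medium, 3.69 below it after activation and 0.96 below it with TRAIL. *Ebf1* went the other way, from 2.25 below in medium to 0.21 below after activation and 1.88 below with TRAIL. *Pax5* was below the geometric mean in medium (-0.69) and with TRAIL (-0.46) and above it after activation (0.51), and *Fcer2a* stood higher after activation (1.11) than in medium (0.32) or with TRAIL (0.12). *Cd79a* stood lower after activation (0.80) than in medium (1.58) or with TRAIL (1.68), and *Ms4a1* likewise (0.32, 0.87 and 0.82). *Cd22* overlapped between all 3 groups, with means of 0.19, 0.22 and 0.08. The 9 ratios of a library are tied to each other, since they sum to 0 on the log2 scale.

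**Figure D3:**
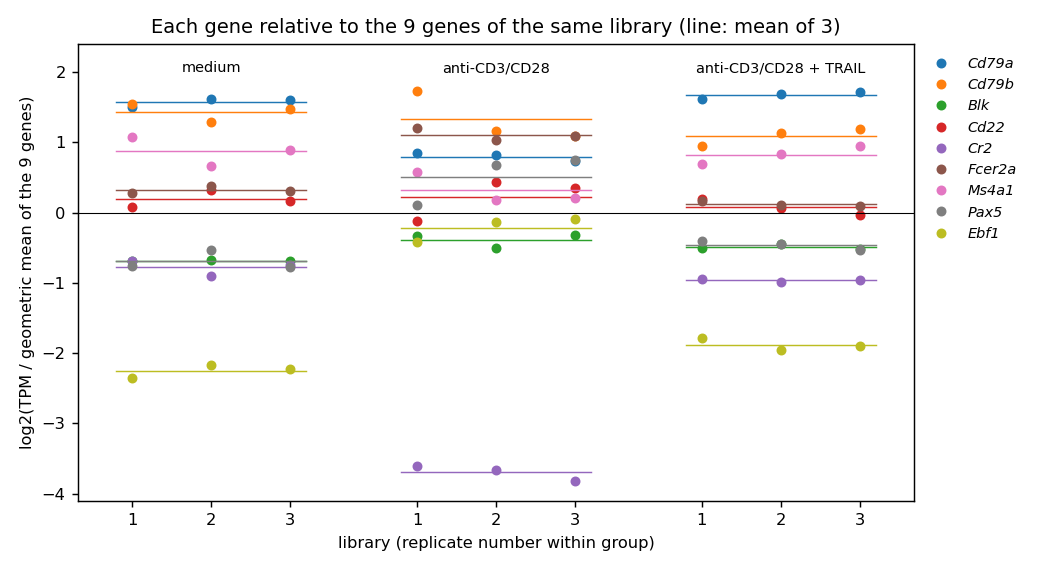
Log2 ratio of each gene's TPM to the geometric mean of the 9 B cell genes in the same library (y axis), by library and group (x axis). Points are libraries and lines are means of 3. *Cr2* lies at -0.78 in medium, -3.69 in activated and -0.96 in TRAIL-treated activated libraries, and *Ebf1* at -2.25, -0.21 and -1.88.

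The same TPM values are given next as ratios within pairs of genes of like function. The pairs were chosen after their values were seen, so they restate the ratios above and are no separate evidence. The ratio of *Cr2* to *Fcer2a*, both surface receptors of mature B cells, was 0.470 ± 0.0515 in medium, 0.0359 ± 0.00269 after activation and 0.471 ± 0.00983 with TRAIL (SD, n = 3). The ratio of *Cd79a* to *Cd79b* was 1.11 ± 0.143, 0.703 ± 0.139 and 1.499 ± 0.0846. The ratio of *Pax5* to *Ebf1* was 2.95 ± 0.207, 1.66 ± 0.195 and 2.68 ± 0.153. The order of levels describes these values once more. With TRAIL it was that of medium except that *Pax5* and *Blk*, which overlapped, changed places. After activation *Cd79b* was first, followed by *Fcer2a*, *Cd79a*, *Pax5*, *Ms4a1*, *Cd22*, *Ebf1*, *Blk* and *Cr2*, and of these neighbours *Fcer2a* and *Cd79a*, and *Blk* and *Cr2*, did not overlap.

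Other genes that act with these 9 were followed in lists of B cell receptor signalling and coreceptor genes (15 genes), B cell transcription factors (11 genes) and B cell surface and homing genes (15 genes). Of these 41 genes, 29 fell and 1 rose on activation, 24 rose and 2 fell with TRAIL against activated cells, and 13 fell and 1 rose with TRAIL against medium, where median-of-ratios scaling left 6 that fell. Over all genes tested, 19.5% fell and 12.4% rose on activation, 16.6% rose and 14.3% fell with TRAIL against activated cells, and 2.13% fell and 2.49% rose with TRAIL against medium. The median log2 fold changes of the 41 were -1.98, 1.15 and -0.85. Not all of the 41 are confined to B cells, as stated below for some. The part of other cells in these counts was not tested. Among the receptor signalling genes 12 of 15 fell on activation and 9 of 15 rose with TRAIL. *Syk*, the kinase recruited by CD79A and CD79B, was at 164, 30.4 and 95.0 TPM in medium, activated and TRAIL-treated activated cells. *Cd72*, an inhibitory receptor, was at 172, 11.0 and 103 TPM, and *Bank1*, a B cell scaffold protein, at 172, 9.11 and 84.1 TPM. These 3 genes fell on activation and rose with TRAIL by the rule above.

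Among the transcription factors 7 of 11 fell and 1 rose on activation, and 6 rose and 1 fell with TRAIL against activated cells. *Spib*, an Ets-family factor of B cells, was at 186, 7.64 and 68.3 TPM, with log2 fold changes of -4.44 and 3.00. *Irf8*, which is not confined to B cells, was the gene that rose on activation. It went from 138 to 358 TPM (1.36 on the log2 scale, limma adjusted p = 2.1e-06) and fell with TRAIL to 86.5 TPM. Which cells this rise came from was not tested. *Pou2af1*, the coactivator of octamer-binding factors, fell from 150.4 to 54.7 TPM on activation and was at 64.7 TPM with TRAIL, where it did not pass the test (log2 fold change 0.24, limma adjusted p = 0.052). *Ikzf3*, expressed in B and T cells, was at 297, 348 and 187 TPM and passed the rule in none of the 3 comparisons. Its activated libraries spread widely, at 179, 437 and 427 TPM. Among the surface and homing genes 10 of 15 fell on activation and 9 rose with TRAIL. *Cd37* was at 456, 115 and 292 TPM, *Ly6d* at 429, 33.0 and 225 TPM and *Cd24a* at 323, 47.3 and 186 TPM, and all 3 fell and then rose by the rule. *Ptprcap*, which lymphocytes of both lineages express, was at 580, 339 and 306 TPM and passed the rule in none. *Cd40* and *Cd83* were singled out after their values were seen. *Cd40*, the receptor for T-cell help, was at 36.8, 47.9 and 15.9 TPM and fell with TRAIL against both other groups, and *Cd83*, a maturation marker of dendritic and B cells, was at 69.9, 84.3 and 185 TPM and rose with TRAIL against both.

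Stages of the B cell lineage were compared with 4 further lists. Of 8 precursor genes, 3 passed the filter on low TPM, and all 3 fell on activation and rose with TRAIL. *Vpreb3*, a protein associated with the precursor receptor, was at 37.3 TPM in medium, at 1.31, 0.925 and 0.0001 TPM in the activated libraries and at 14.3 TPM with TRAIL. In the same order of groups *Cd93* was at 6.74, 0.881 and 6.02 TPM and *Dntt*, the terminal transferase of precursor lymphocytes, at 5.89, 0.555 and 5.34 TPM, whereas *Rag1*, the recombinase subunit, had a mean of 1.14 TPM in medium and did not pass the filter. Of 7 marginal zone and B-1 cell genes, 5 fell and 1 rose on activation and 4 rose and 1 fell with TRAIL. *Bhlhe41* and *S1pr3* fell on activation beside the genes below, and *Bhlhe41* rose with TRAIL. *Dtx1* was at 153, 10.4 and 122 TPM, *Cd1d1*, the lipid-presenting molecule, at 55.0, 7.37 and 43.0 TPM and *Cd9* at 118, 40.5 and 85.8 TPM. *Mzb1* was at 65.0, 46.7 and 42.2 TPM and passed in no comparison. *Zbtb32* was the gene that rose on activation, from 5.02 to 60.7 TPM, and fell with TRAIL to 3.95 TPM. Which cells its transcripts came from was not tested. Of 6 germinal centre genes, 2 reached 1 TPM only in medium and so had to be highest there. Of the other 4 genes, *Bcl6* and *Rgs13* fell on activation and rose with TRAIL. *Bcl6*, the repressor needed for germinal centres and also used by follicular helper T cells, was at 33.3, 6.74 and 35.3 TPM, and *Rgs13* was at 3.09 TPM in medium, listed at 0.0001 TPM in each activated library, and at 1.21 TPM with TRAIL. *S1pr2* and *Mybl1* did not pass in any comparison. Of 6 plasma cell genes, 3 fell and 3 rose on activation and the directions were opposite with TRAIL, with *Jchain*, *Sdc1* and *Tnfrsf17* among those that fell on activation and *Irf4*, *Xbp1* and *Prdm1* among those that rose. *Jchain*, which joins secreted IgM and IgA, was at 342, 12.0 and 316 TPM and *Sdc1*, the plasma cell surface marker CD138, at 6.77, 0.9898 and 4.95 TPM, while *Irf4* was at 57.2, 734 and 183 TPM and *Xbp1* at 78.6, 301 and 110 TPM, 2 factors that activated T cells also express. *Bhlhe41*, *S1pr3*, *Zbtb32*, *Tnfrsf17*, *Prdm1* and the T cell markers *Cd2* and *Cd3g* were named after their values were seen.

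Genes with the pattern most like that of the 9 were sought among 11948 other genes, by Pearson's r of log2(TPM + 1) over the 9 libraries with the mean of the 9 centred profiles. The 10 highest had r of 0.9978 to 0.9994, and 206 genes were over 0.99. Among them were *Spib*, *H2-DMb2*, *Gpbp1l1*, *Ighm*, *Stom*, *Gm15675*, *Unc93b1*, *Ccnd1* and *Icosl*. *Ighm*, the constant region of IgM, was at 4039, 544 and 2341 TPM in medium, activated and TRAIL-treated activated cells. *H2-DMb2*, a chain of the peptide-editing molecule of MHC class II, was at 240.3, 25.2 and 121 TPM, and *Unc93b1*, the chaperone of endosomal Toll-like receptors, at 303, 43.7 and 165 TPM. *Icosl*, the ligand of ICOS on antigen-presenting cells, was at 60.2, 2.50 and 23.9 TPM. *Gpbp1l1* had the same shape with a smaller amplitude, at 106, 50.7 and 84.9 TPM. The 9 genes themselves had r of 0.971 (*Ebf1*) to 0.999 (*Blk*) with their own mean. The points are 9 libraries in 3 groups that share their treatment, so r describes likeness and was not tested.

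Markers of T cells and of other cells were measured beside these values. The 14 T cell markers summed to 6305 to 6440 TPM in medium, 5943 to 6207 TPM in activated and 6316 to 6737 TPM in TRAIL-treated activated libraries, and of these 14 genes 1 rose (*Cd2*) and 1 fell (*Cd3g*) on activation and none passed in the other comparisons. *Cd4* itself was at 384 ± 44.9, 220 ± 44.0 and 384 ± 46.7 TPM (SD, n = 3). The 9 B cell genes summed to 2168 to 2263, 152 to 173 and 897 to 1006 TPM, so after activation 7.25% of their medium sum was left and with TRAIL 43.3%. The 6 immunoglobulin constant genes summed to 9456 to 9597, 1072 to 1171 and 5495 to 6107 TPM, 11.9% and 61.2% of medium.

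The 11 macrophage markers moved in the same directions, at 1745 to 1901, 61.3 to 74.7 and 1447 to 1631 TPM, and all 11 fell on activation and all 11 rose with TRAIL. The 9 neutrophil markers summed to 793 to 1068, 34.0 to 49.8 and 483 to 580 TPM. *Ly6g* reached 1 TPM only in medium and so had to be highest there, and all 8 others fell on activation and rose with TRAIL. The 8 erythroid markers measured summed to 2149 to 2600, 25.6 to 40.8 and 622 to 672 TPM, and 8 fell and 7 rose. The 7 dendritic cell markers summed to 64.8 to 68.6, 9.99 to 13.7 and 39.4 to 43.2 TPM. *Xcr1* reached 1 TPM only in medium and so had to be highest there. Of the other 6 genes, 5 fell on activation while 4 rose and 1 fell with TRAIL against activated cells. *Zbtb46*, the gene that fell, was at 2.44, 5.86 and 1.20 TPM. The sums of all these lists were lowest after activation. With TRAIL they stood at different shares of medium, 84.98% for macrophage, 62.0% for dendritic cell, 56.1% for neutrophil and 26.9% for erythroid markers, beside 43.3% for the 9 B cell genes. The 6 natural killer cell markers summed to 247 to 326, 225 to 295 and 92.7 to 96.2 TPM, and the sum overlapped between medium and activated libraries and was lowest with TRAIL. Most of this sum was *Gzma*, at 149, 230.0 and 51.3 TPM. Of the 6 genes, 4 fell on activation (*Ncr1*, *Klra8*, *Klrb1c* and *Klre1*, to between 6.59% and 14.6% of medium), and 3 rose and 1 (*Gzma*) fell with TRAIL against activated cells. The genes of these other cell types that are named here were also named after their values were seen. The 2 CD8 genes summed to 110 to 118, 94.2 to 105 and 46.9 to 49.4 TPM and were lowest with TRAIL as well. *Slc4a1*, the anion exchanger gene of erythroid cells, was listed at 0.0001 TPM in all 3 activated libraries. The part of these cells in the results for the 9 genes was not tested.

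**Figure D4:**
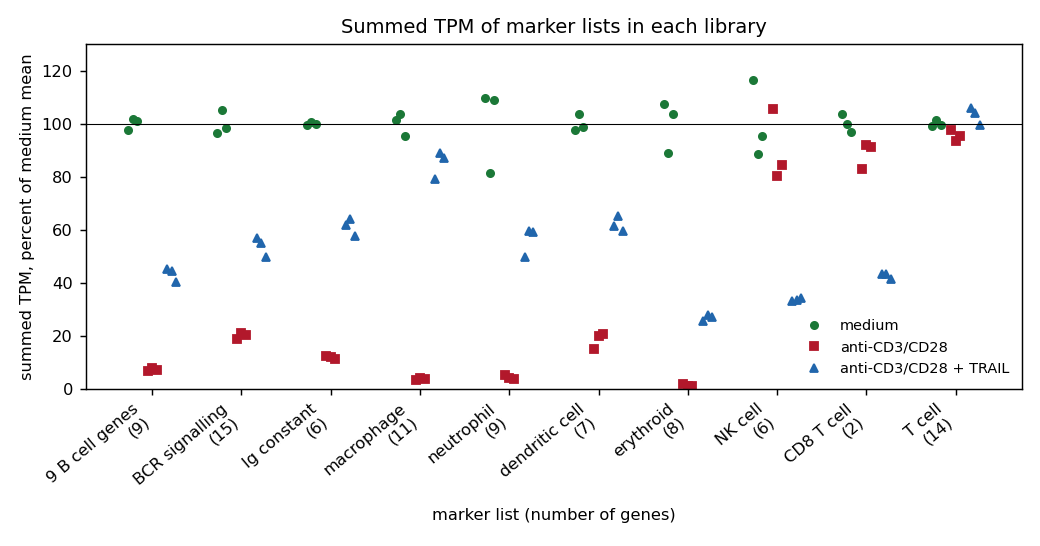
Summed TPM of each marker list as a percent of its medium mean, by library. The 9 B cell genes lie at 7.25% after activation and 43.3% with TRAIL, the macrophage markers at 3.69% and 84.98%, and the T cell markers at 95.5% and 103%.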

How the data were processed

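CD4+ T cells were isolated from spleens of wild-type C57BL/6 mice, cultured in the 3 conditions, and poly(A) RNA was sequenced with paired ends on a NovaSeq instrument. The submitters' processing notes name Trimmomatic 0.36, HISAT2 2.1.0, SAMtools 1.2, StringTie 2.1.2 and DESeq2. The authors deposited 1 table of TPM values for 55487 genes in 9 libraries. Their notes name a human build, but the study's methods name the mouse build GRCm38 and the listed positions match it: of the 55141 gene identifiers found in GENCODE release M21, 99.3% are at the same locus. TPM carries no depth, so the number of reads behind a value is unknown. In a library 13691 to 14909 genes reached 1 TPM. Whether reads were counted by strand is not given in the sources used here.

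Groups were taken from the sample labels. TPM values are not counts, so limma 3.58.1 (R 4.3.3, empirical Bayes with a variance trend) was fitted to log2(TPM + 1) over all 9 libraries and the 15536 genes that reached 1 TPM in 3 or more libraries, without replicate number as a term. DESeq2, named in the study's methods, was not used because it needs counts. P-values are two-sided and were adjusted over all genes tested by Benjamini-Hochberg. The call needed an adjusted p under 0.05 together with a log2 fold change of 1 or more in size, and "rose" and "fell" refer to these calls. Fold changes are on the log2(TPM + 1) scale, which understates the change of low genes. The scripts were tested on simulated data. No libraries held identical values.

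Named genes were all 9 genes, the up to 4 genes of each further B cell list with the highest mean TPM in medium, and the 10 genes most like the 9 in pattern, with a group mean of at least 5 TPM and without immunoglobulin variable segments; some of these are not reported here. The 9 genes and the lists were chosen with earlier results of these data known. Alternatives were pseudocounts of 0.1 and 5 TPM, no filter or a mean of at least 5 TPM, median-of-ratios scaling, quantile normalization, rescaling without mitochondrial, immunoglobulin and globin genes, no variance trend, robust empirical Bayes, only the compared groups, a replicate block, no fold change threshold, and each library left out in turn. Promoter sequences came from RefSeq (GRCm38.p6).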

Additional observations from a re-analysis of the deposited data

How the results depend on the processing

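Over 567 recalculated log2 fold changes of the 9 genes, 557 kept direction and call, 0 reversed, 3 lost the call and 7 gained it. The 3 losses were *Cd79a* with TRAIL against medium, and the 7 gains were *Ebf1* with TRAIL against activated cells (4) and, with no fold change threshold, *Blk*, *Pax5* and *Ebf1* with TRAIL against medium. *Pax5* with TRAIL against medium had an adjusted p in limma of 0.079 without a filter on low TPM. The counts of the 41 other B cell genes that fell with TRAIL against medium were 13 in the reported fit, 6 under median-of-ratios scaling and 35 with no fold change threshold. Of all genes, 3033 fell on activation, 1696 with a pseudocount of 5 TPM and 6208 with no fold change threshold, and 2580 rose with TRAIL against activated cells, 1412 with a pseudocount of 5 TPM and 5211 with no fold change threshold. With TRAIL against medium 331 of all genes fell, 614 and 116 with pseudocounts of 0.1 and 5 TPM, 187 under median-of-ratios scaling, 212 under quantile normalization and 3816 with no fold change threshold. Quantile normalization moved the median of all genes by 0.17 on activation and by 0.14 with TRAIL against medium. The cause of these differences was not tested.

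The libraries of different groups share only a replicate number: same-numbered libraries correlated between -0.31 and 0.29 in their deviations from the group means, with 3 of 9 pairs over 0.1. With the number as a block, 9, 8 and 6 of the 9 genes were called in the 3 comparisons, and 29, 24 and 13 of the 41 other B cell genes, as without it. Of all genes, 3033, 2582 and 328 were then called in the same directions. TPM carries no depth, so what a value near 1 TPM rests on could not be given.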
